A study of Triticum aestivum with 23 samples.

Results

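The dwarf *tabri1-a.2bd* was compared with Cadenza, the wheat cultivar from which the mutants were derived, in the 8 libraries of these genotypes alone. The members are the 73906 genes, of 266760 in the table, with a TPM (length-scaled transcript level that sums to the same total in every library) of at least 0.5 in 3 or more of these 8 libraries, out of 23 libraries in the series. The series holds RNA-seq of whole shoots, harvested from seedlings with 2 leaves, of hexaploid wheat lines with mutations in the brassinosteroid (BR) receptor gene *TaBRI1*. Seedlings grew at a constant temperature under continuous light, and multiple seedlings were pooled in each replicate.

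*tabri1-a.2bd* carries premature stop codons in *TaBRI1-B* and *TaBRI1-D* and an amino acid substitution, in the last leucine-rich repeat, in *TaBRI1-A*. It is a single line, obtained by EMS mutagenesis of the double mutant *tabri1-bd*, backcrossed to that double mutant and selected in the selfed progeny, so other EMS mutations remain in its background. Cadenza was not mutagenized and carries wild-type *TaBRI1* genes. Beside these genotypes, values are given for *tabri1-a.1bd*, whose 3 homoeologues carry stop codons, for *tabri1-a.3bd*, which has a substitution in the kinase domain of *TaBRI1-A* together with both stop codons, for *tabri1-bd*, and for *TaBRI1-NS*, the null segregant of a backcross population. The comparison asks how the dwarf differs from a control that shares no library with *TaBRI1-NS*.

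BRs are plant steroid hormones that promote cell elongation and division. They are perceived at the cell surface by the receptor kinase BRI1 with its co-receptor BAK1, which leads to inactivation of the kinase BIN2 and to accumulation of active BZR transcription factors. In *Arabidopsis* and rice, active BZR factors lower the transcription of BR biosynthesis genes, and mutants in the receptor are dwarfed.

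The 4 *tabri1-a.2bd* libraries held between 25705264 and 35960234 reads and the 4 Cadenza libraries between 29734284 and 38452115 reads, recovered from the steps of the TPM values. In a principal component analysis over 500 genes chosen for their variance, PC1 accounted for 81.8%, and the *tabri1-a.2bd* libraries scored between 29.7 and 36.6 on it, against -36.4 to -31.1 for the Cadenza libraries. PC2 held 7.7%, and *tabri1-a.2bd* replicate 3 had the lowest score of its genotype on it (-17.7, against 2.5 to 7.4 for the 3 others). Pearson correlations of log2(TPM + 0.5) across genes lay between 0.912 and 0.940 for pairs of libraries of different genotype, between 0.947 and 0.954 within *tabri1-a.2bd*, and between 0.954 and 0.973 within Cadenza. No gene marked leaf or root in the sources used here, so the tissue was checked only by 17 genes of the chloroplast thylakoid membrane. These summed to 3280 to 3740 TPM in the *tabri1-a.2bd* libraries and 3790 to 4240 TPM in the Cadenza libraries. A single gene held 1980 to 2320 TPM and 2400 to 2740 TPM of these sums. The study took the list from DEGs that the same *tabri1-a.2bd* libraries shared with *tabri1-a.1bd* against *TaBRI1-NS*, so it is not a neutral check of tissue. In whole shoots, fewer cells of a type and less RNA per cell cannot be told apart.

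A total of 7120 genes were differentially expressed between *tabri1-a.2bd* and Cadenza (DEGs, limma, p adjusted by Benjamini-Hochberg to at most 0.05), which is 9.63% of the genes tested. Of these, 2781 were higher in *tabri1-a.2bd* (3.76% of the genes tested) and 4339 were lower (5.87%). The median log2 change over all genes tested was -0.03. The filter admitted 701 genes through the dwarf alone, with no Cadenza library at 0.5 TPM or more, and 904 through Cadenza alone. Such genes passed only by their level in the genotype where they were high, and they made up 255 of the higher and 465 of the lower DEGs. A change of more than 2-fold was fitted for 1020 of the higher DEGs and 1717 of the lower DEGs, and a change of more than 4-fold for 263 and 284 of them. High-confidence gene models were called more often (4.31% higher and 6.52% lower of 56632) than low-confidence models (1.97% higher and 3.76% lower of 17274). The 3 subgenomes had similar shares, with 3.66%, 3.85% and 3.77% of the genes tested higher, and 5.77%, 5.80% and 6.01% lower, on A, B and D. Without Cadenza replicate 2 the count of DEGs was 4412, with 1800 higher and 2612 lower, and without Cadenza replicate 3 there were 2867 lower DEGs.

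Set beside these, *tabri1-a.2bd* had 7324 DEGs against *TaBRI1-NS* (10.1% of 72815 genes tested, 4022 higher and 3302 lower), and *TaBRI1-NS* had 1989 DEGs against Cadenza (2.73% of 72961, 425 higher and 1564 lower). These comparisons share libraries with the main one. DEGs lower than in Cadenza outnumbered the higher ones in both *tabri1-a.2bd* and *TaBRI1-NS*. The median log2 change over all genes tested was -0.10 for *TaBRI1-NS* minus Cadenza. For *tabri1-a.2bd* the size of the excess of lower over higher DEGs depended on the processing. The dwarf had 3189 higher and 3800 lower DEGs with median-of-ratios size factors, and 4132 and 5070 with voom on recovered reads.

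Of the 76 BR pathway genes that the study lists, 67 passed the filter on low values, and 18 were DEGs, 14 higher and 4 lower in *tabri1-a.2bd*, where 9.63% of all genes were called, as higher in 3.76% and as lower in 5.87%. The filter admitted 1 of the 14 through the dwarf alone (*TaBR6ox1-A3*). Of the other 21 biosynthesis enzymes tested, 9 were higher and 0 lower, with a median log2 change of 0.56. Of the enzymes that make the sterol precursors, 2 of 15 were higher and 2 lower. Of the receptor complex, 1 of 11 was higher and 2 were lower, and of the signalling components downstream, 1 of 19 was higher.

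The largest changes of the pathway were in *TaBR6ox1*, which encodes the brassinosteroid 6-oxidase (CYP85A) that forms the bioactive BR castasterone. The 6 *TaBR6ox1* genes that reached 0.5 TPM in libraries of both genotypes all rose in *tabri1-a.2bd*, by 1.78 to 2.66 on the log2 scale. *TaBR6ox1-B2* (TraesCS2B03G0038200), the most abundant of them, had 9.96, 10.7, 11.4 and 13.9 TPM in the *tabri1-a.2bd* libraries, against 2.26, 1.24, 1.16 and 1.94 TPM in the Cadenza libraries. Its lowest *tabri1-a.2bd* library was therefore well above its highest Cadenza library, with a log2 change of 2.50 ± 0.19 (SE, adjusted p = 6.9e-05).

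*TaBR6ox1-D3* (TraesCS2D03G0027700) had 3.57, 5.55, 5.55 and 6.69 TPM in *tabri1-a.2bd*, against 0.2, 0.572, 0.539 and 0.354 TPM in Cadenza. Its log2 change of 2.66 ± 0.22 was the largest of the family (adjusted p = 0.00012). *TaBR6ox1-D1* (TraesCS2D03G0028100) had 5.35, 5.91, 7.24 and 9.83 TPM in *tabri1-a.2bd*, against 0.513, 0.53, 0.988 and 0.882 TPM in Cadenza. This is a log2 change of 2.61 ± 0.22 (adjusted p = 0.00012), again without overlap between the genotypes.

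The second copy on 2D, *TaBR6ox1-D2* (TraesCS2D03G0027500), averaged 5.53 ± 0.936 TPM in *tabri1-a.2bd*, against 1.11 ± 0.316 TPM in Cadenza (SD, n = 4 each), a log2 change of 1.91. On 2A, *TaBR6ox1-A1* (TraesCS2A03G0029200) averaged 4.84 ± 1.17 TPM in *tabri1-a.2bd*, against 1.06 ± 0.384 TPM in Cadenza (SD, n = 4 each), a log2 change of 1.78, and *TaBR6ox1-A2* (TraesCS2A03G0027900) averaged 3.46 ± 0.466 TPM in *tabri1-a.2bd*, against 0.63 ± 0.234 TPM in Cadenza (SD, n = 4 each), a log2 change of 1.83. *TaBR6ox1-A3* (TraesCS2A03G0028800) had 0.535, 0.864, 0.417 and 0.634 TPM in *tabri1-a.2bd*, against 0.0423, 0, 0.0143 and 0.0226 TPM in Cadenza. With the pseudocount of 0.5 TPM, its fitted log2 change of 1.08 is smaller than the ratio of the means. It passed the filter through the dwarf alone, so its call is not counted as a rise.

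Both copies that did not pass the filter were also low. *TaBR6ox1-B1* (TraesCS2B03G0038000) had 0.261, 0.0857, 0.356 and 0.91 TPM in *tabri1-a.2bd*, against 0 TPM in the 4 Cadenza libraries. *TaBR6ox1-B3* (TraesCS2B03G0038400) had 0, 0.14, 0.174 and 0.251 TPM in *tabri1-a.2bd*, against 0 TPM in 3 of the 4 Cadenza libraries. The identifiers of the 9 copies lie close together on 2A, 2B and 2D, and reads of near-identical copies may have been split or dropped in the counting, so the values of single copies are uncertain.

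The 9 copies together summed to 31.1, 35.7, 39.5 and 49.3 TPM in *tabri1-a.2bd*, against 6.11, 4.11, 6.10 and 6.20 TPM in Cadenza. The same sum was 10.3 to 18.1 TPM in *tabri1-a.3bd*, where all 4 libraries exceeded the Cadenza range. The *tabri1-bd* libraries had 7.38 to 8.82 TPM and the *TaBRI1-NS* libraries 3.81 to 6.86 TPM. In *tabri1-a.1bd* it was 145 and 157 TPM in replicates 2 and 3 and 6.70 TPM in replicate 1, which stands apart from both. Each of the 6 genes was also higher in *tabri1-a.2bd* than in *TaBRI1-NS*, by 1.72 to 2.77 on the log2 scale, while the difference of *TaBRI1-NS* minus Cadenza lay between -0.31 and 0.29 for these 6 copies.

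*DWARF4* encodes the cytochrome P450 that hydroxylates the sterol side chain, a step regarded as rate-limiting for BR synthesis in *Arabidopsis*. *TaDWARF4-4D* (TraesCS4D03G0567600) had 3.31, 3.4, 3.5 and 2.48 TPM in *tabri1-a.2bd*, against 1.01, 1.11, 1.85 and 1.41 TPM in Cadenza. It rose by 1.00 ± 0.18 on the log2 scale (adjusted p = 0.0087). *TaDWARF4-4B* (TraesCS4B03G0638000) had 2.47, 5.06, 3.59 and 5.08 TPM in *tabri1-a.2bd*, against 2.41, 2.24, 1.85 and 2.13 TPM in Cadenza. The genotypes did not overlap, but its log2 change of 0.73 ± 0.21 did not pass the test (adjusted p = 0.059), and it passed when replicate 1 of the dwarf was left out (log2 change of 0.92, adjusted p = 0.012). *TaDWARF4-4A* (TraesCS4A03G0157500), under 1 TPM in all 8 libraries, had a log2 change of 0.56 ± 0.21 (adjusted p = 0.13). The 3 copies on chromosomes 3A, 3B and 3D were at 0 in every library of the series.

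*CPD* encodes another cytochrome P450 of the pathway (CYP90A1). *TaCPD1-D* (TraesCS5D03G0351000) had 12.9, 11, 9.81 and 14 TPM in *tabri1-a.2bd*, against 6.94, 6.03, 7.35 and 7.72 TPM in Cadenza. It rose by 0.72 ± 0.13 on the log2 scale (adjusted p = 0.0086). *TaCPD1-A* (TraesCS5A03G0368600) had 11.9, 12.8, 10.5 and 16.7 TPM in *tabri1-a.2bd*, against 9.79, 7.28, 7.09 and 8.46 TPM in Cadenza. It rose by 0.63 ± 0.15 (adjusted p = 0.032), a call that was lost without replicate 1, 2 or 4 of *tabri1-a.2bd* or replicate 2, 3 or 4 of Cadenza (adjusted p between 0.054 and 0.09). *TaCPD1-B* (TraesCS5B03G0369000) averaged 15.2 ± 1.59 TPM in *tabri1-a.2bd*, against 11.9 ± 1.39 TPM in Cadenza (SD, n = 4 each), with a log2 change of 0.35 that did not pass the test (adjusted p = 0.088).

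**Figure D1:**
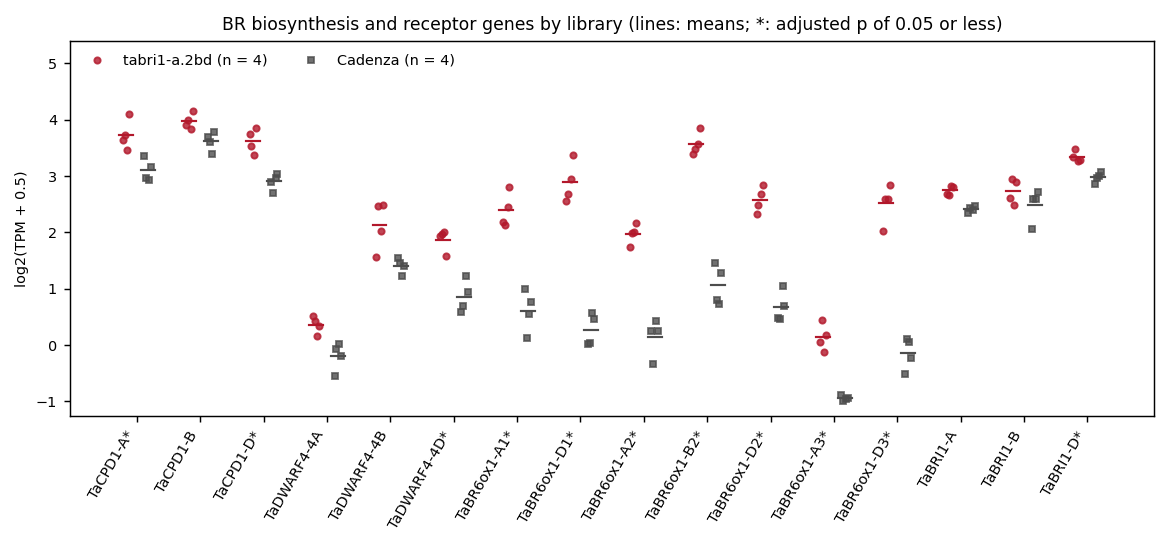
log2(TPM + 0.5) of the tested *TaCPD1*, *TaDWARF4*, *TaBR6ox1* and *TaBRI1* genes, with a point per library of *tabri1-a.2bd* (circles, left) and Cadenza (squares, right), lines for the means and asterisks for genes with an adjusted p of 0.05 or less. The points of the 2 genotypes do not overlap for any *TaBR6ox1* gene, and the gap is narrower for *TaCPD1* and *TaBRI1*, where *TaBRI1-B* overlaps.

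The other biosynthesis families gave no DEG. They are *DET2* (steroid reductase), *D2* and *D11* (cytochromes P450 named in rice), with 3 genes each and medians of -0.21, -0.07 and 0.20 on the log2 scale. Among the sterol enzymes, *DWF1* (sterol side chain reductase) rose in 2 of 3 copies. *TaDWF1-B* (TraesCS7B03G1304200) had 73.2, 71.6, 74.2 and 69.8 TPM in *tabri1-a.2bd*, against 39.3, 54.6, 58.9 and 49.9 TPM in Cadenza. It rose by 0.52 ± 0.11 (adjusted p = 0.02), and the call was lost without Cadenza replicate 4 (adjusted p = 0.052). *TaDWF1-D* (TraesCS7D03G1291100) averaged 27.7 ± 1.91 TPM in *tabri1-a.2bd*, against 20.2 ± 2.81 TPM in Cadenza (SD, n = 4 each). The log2 change of 0.46 passed the test (adjusted p = 0.031) but not without replicate 2, 3 or 4 of *tabri1-a.2bd* or replicate 2 of Cadenza (adjusted p between 0.06 and 0.072).

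The 2 sterol genes that fell act earlier in the route. *TaDWF7-D* (TraesCS3D03G0075300), a sterol desaturase, had 47, 42.1, 47 and 40.4 TPM in *tabri1-a.2bd*, against 60.7, 57.4, 59.3 and 57.2 TPM in Cadenza. Its log2 change was -0.41 ± 0.07 (adjusted p = 0.007). *TaDWF5-A* (TraesCS3A03G1145800), a sterol reductase, averaged 12.2 ± 0.998 TPM in *tabri1-a.2bd*, against 17.2 ± 2.02 TPM in Cadenza (SD, n = 4 each). The log2 change of -0.47 passed the test (adjusted p = 0.022), and the call was lost without replicate 1, 2 or 4 of *tabri1-a.2bd* or replicate 2 or 3 of Cadenza (adjusted p between 0.05 and 0.067). None of the 6 *FACKEL1* and *HYD1* genes was called.

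Of the receptor complex, the mutated genes themselves were not lower in the dwarf. *TaBRI1-A* (TraesCS3A03G0629800) had 5.95, 5.8, 6.57 and 6.49 TPM in *tabri1-a.2bd*, against 4.57, 4.9, 4.78 and 5.02 TPM in Cadenza. Its log2 change of 0.33 ± 0.10 did not pass the test (adjusted p = 0.062). *TaBRI1-D* (TraesCS3D03G0579600), the most abundant homoeologue, had 9.63, 10.7, 9.17 and 9.24 TPM in *tabri1-a.2bd*, against 6.78, 7.27, 7.52 and 7.95 TPM in Cadenza. Its log2 change of 0.37 ± 0.09 passed the test (adjusted p = 0.039), and the call was lost when any 1 of the 8 libraries was left out (adjusted p between 0.052 and 0.097). *TaBRI1-B* (TraesCS3B03G0712100) overlapped between the genotypes, with 6.21 ± 1.01 TPM in *tabri1-a.2bd*, against 5.20 ± 1.05 TPM in Cadenza (SD, n = 4 each, adjusted p = 0.43). These levels include mutant and wild-type transcripts alike and say nothing of the allele.

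*BAK1* is the co-receptor. Of the 5 genes tested, 2 were lower and 3 were not called. Those not called were *TaBAK1-B1*, *TaBAK1-D1* and *TaBAK1-D2*, with log2 changes of 0.29, 0.27 and -0.40 (adjusted p of 0.43, 0.36 and 0.066). *TaBAK1-B2* (TraesCS2B03G0887400) had 20.9, 22.5, 22.2 and 20.3 TPM in *tabri1-a.2bd*, against 31.1, 30.8, 30.8 and 28.4 TPM in Cadenza. It fell by 0.49 on the log2 scale (adjusted p = 0.0029). *TaBAK1-A2* (TraesCS2A03G0801300) averaged 13.4 ± 1.09 TPM in *tabri1-a.2bd*, against 18.6 ± 1.70 TPM in Cadenza (SD, n = 4 each), a log2 change of -0.46 (adjusted p = 0.016). Against *TaBRI1-NS*, *TaBAK1-B2* and *TaBAK1-A2* had log2 changes of -0.26 and -0.19, with adjusted p of 0.1 and 0.44. For *TaBRI1-NS* minus Cadenza the changes were -0.23 and -0.27, also not called.

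*BKI1* encodes an inhibitor that keeps BRI1 from its co-receptor in the absence of BRs. The 3 *TaBKI1* genes had log2 changes of -0.58, -0.79 and -0.79 in A, B and D, and none passed the test. *TaBKI1-A* (TraesCS5A03G0604200) had 4.14, 1.89, 2.14 and 2.51 TPM in *tabri1-a.2bd*, against 3.69, 4.43, 4.24 and 4.04 TPM in Cadenza. Replicate 1 of the dwarf lay within the Cadenza range, and without it *TaBKI1-A* was called (log2 change of -0.78, adjusted p = 0.013). *TaBKI1-B* (TraesCS5B03G0623000) was called without *tabri1-a.2bd* replicate 3 (log2 change of -1.05, adjusted p = 0.04). Its libraries held 0.938, 2.15, 3.21 and 1.08 TPM in *tabri1-a.2bd* and 3.74, 3.36, 3.79 and 2.35 TPM in Cadenza. *TaBKI1-D* (TraesCS5D03G0569800) averaged 1.25 ± 0.966 TPM in *tabri1-a.2bd*, against 2.22 ± 0.534 TPM in Cadenza (SD, n = 4 each), with overlapping libraries.

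The 9 *TaBZR* transcription factor genes that passed the filter all had log2 changes above 0, between 0.14 and 0.54, and 1 passed the test. *TaBZR-D1* (TraesCS2D03G0418200) had 12, 15.5, 14.4 and 13.6 TPM in *tabri1-a.2bd*, against 10.2, 7.68, 11 and 8.96 TPM in Cadenza. Its call (adjusted p = 0.029) was lost without replicate 2, 3 or 4 of *tabri1-a.2bd* or replicate 2 or 4 of Cadenza (adjusted p between 0.058 and 0.077). *TaBZR-A2* had a log2 change of 0.39 (adjusted p = 0.063), which passed without Cadenza replicate 1 at 0.45 (adjusted p = 0.05). Its identifier (TraesCS3B03G0374100) lies on 3B in the study's list, and that of *TaBZR-B2* (TraesCS3A03G0309300, log2 change of 0.22) on 3A. *TaBZR-B2* did not overlap between the genotypes, while *TaBZR-A1*, *TaBZR-B1*, *TaBZR-D2*, *TaBZR-A3* and *TaBZR-D3* did, with log2 changes of 0.25, 0.14, 0.18, 0.42 and 0.20. *TaBZR-B3* had a log2 change of 0.45 (adjusted p = 0.091).

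*CDG1* and *BSK1* encode cytoplasmic kinases that act next to the receptor, *BSU1* a phosphatase, and *BIN2* the kinase that inactivates BZR factors. *TaCDG1-A*, *TaCDG1-B* and *TaCDG1-D* had log2 changes of -0.22, -0.08 and -0.15 (adjusted p of 0.21, 0.7 and 0.42), with overlapping libraries. None of the 2 *BSK1*, 2 *BSU1* and 3 *BIN2* genes was called, with log2 changes between -0.18 and 0.16. In a fit of all 23 libraries the calls on *TaBR6ox1-D2*, *TaDWF7-D*, *TaDWF1-B*, *TaDWF1-D*, *TaCPD1-A*, *TaBRI1-D*, *TaBAK1-A2* and *TaBZR-D1* were lost (adjusted p between 0.057 and 0.37) and *TaDWARF4-4A* was called (0.026).

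**Figure D2:**
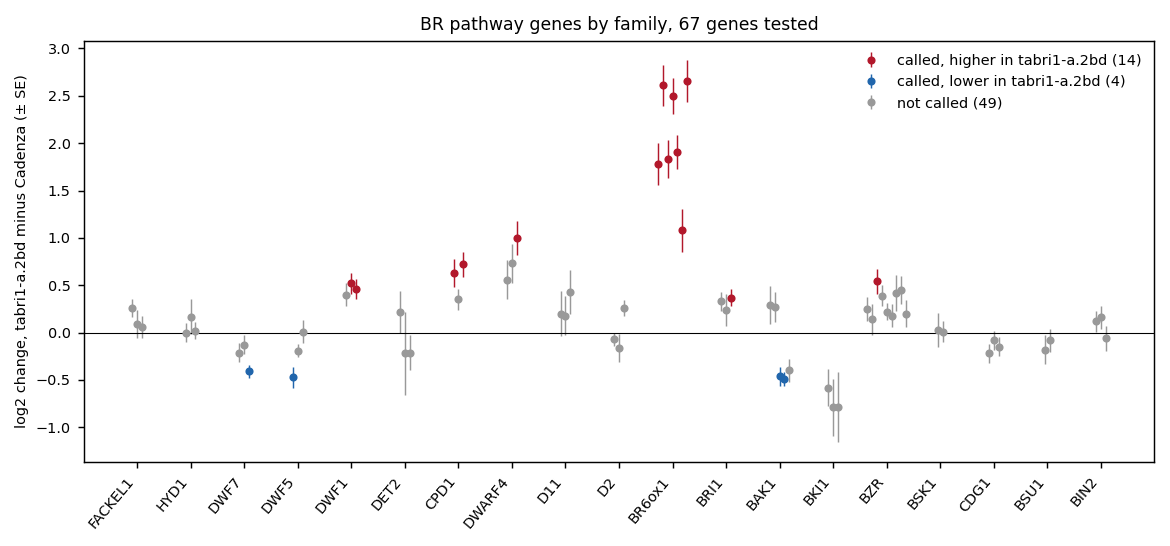
log2 change (*tabri1-a.2bd* minus Cadenza, ± SE, n = 4 each) of the 67 BR pathway genes tested, by family, with called genes in red (14 higher) and blue (4 lower) and the 49 others in grey. The *BR6ox1* genes stand at 1.08 (*TaBR6ox1-A3*, admitted through the dwarf alone) to 2.66, *DWARF4*, *CPD1* and *DWF1* above 0, and *BKI1* below 0 with wide errors.

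Other gene groups were read from 18 GO term lists of the study, with 178 genes tested. The study took these genes from its DEGs of the same *tabri1-a.2bd* libraries against *TaBRI1-NS*, so the lists are not independent evidence of a change or of its direction. Of the 178 genes, 124 were DEGs against Cadenza, 40 higher and 84 lower, where 3.76% of all genes tested were higher and 5.87% lower. The filter admitted 5 of the 40 through the dwarf alone and 8 of the 84 through Cadenza alone, and these are left out of the counts of rises and falls below.

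Acid phosphatases, which release phosphate from organic esters, included 8 genes that rose and 5 that fell of 15, with a median log2 change of 1.60. The summed level of all 19 genes of the list, with the 4 admitted through the dwarf alone, was 799, 866, 738 and 906 TPM in *tabri1-a.2bd*. In Cadenza it was 289, 323, 312 and 335 TPM. TraesCS5A03G1242900 had 12.8, 17, 12.9 and 15.1 TPM in *tabri1-a.2bd*, against 0.0771, 0.637, 0.625 and 0.431 TPM in Cadenza (log2 change of 4.03 ± 0.22, adjusted p = 8.5e-06). TraesCS4B03G0939900, admitted by the filter through the dwarf alone, had 13.8, 10.8, 11 and 7.66 TPM in *tabri1-a.2bd*, against 0.23, 0.356, 0.194 and 0.153 TPM in Cadenza. The 5 genes that fell moved by less, and the largest fall among them was in TraesCS5B03G0209100 (log2 change of -0.87, adjusted p = 0.0029), followed by TraesCS5B03G0207100 at -0.61, whose call was lost without Cadenza replicate 2 (adjusted p = 0.059).

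Oxygenases that act on single donors formed 2 sets, with 8 of 19 genes higher and 8 lower. The 8 that rose did so by 2.57 to 3.97 on the log2 scale. TraesCS2B03G1393100 had 21.4, 20.5, 12.1 and 22.3 TPM in *tabri1-a.2bd*, against 0.727, 0.546, 0.716 and 0.886 TPM in Cadenza (log2 change of 3.97 ± 0.20, adjusted p = 4.5e-06). TraesCS5B03G0958400, admitted through the dwarf alone, had 14, 7.1, 7.29 and 6.64 TPM in *tabri1-a.2bd*, against 0, 0.0687, 0.169 and 0.106 TPM in Cadenza. The genes with the largest falls, TraesCS4A03G1017200 and TraesCS7D03G0307400, also belong to the list named chlorophyllide *a* oxygenase activity, the step that makes chlorophyll *b*. Of that list 5 of 7 genes fell and 0 rose. TraesCS4A03G1017200 had 4.68, 4.47, 4.74 and 3.45 TPM in *tabri1-a.2bd*, against 32.2, 36.3, 36 and 37.8 TPM in Cadenza. A log2 change of -2.91 ± 0.11 was far larger than the spread between replicates (adjusted p = 7.6e-07). TraesCS7D03G0307400 had a log2 change of -1.03.

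Of the fatty acid biosynthesis list, 9 of 14 genes fell and 2 rose, with a median log2 change of -1.46. The list also holds 4 of the very-long-chain 3-hydroxyacyl-CoA dehydratase genes that fell, enzymes of the elongation cycle that builds the precursors of cuticular waxes. TraesCS3A03G0165500 of that list had 1.4, 0.205, 0.274 and 1.21 TPM in *tabri1-a.2bd*, against 3.16, 5.81, 5.45 and 3.35 TPM in Cadenza (log2 change of -2.05 ± 0.36, adjusted p = 0.0078). TraesCS3B03G0208300 fell by 1.50 on the log2 scale, and TraesCS7B03G0296800, admitted through Cadenza alone, had 0.035, 0.245, 0.0546 and 0.325 TPM in *tabri1-a.2bd*, against 3.19, 1.49, 2.33 and 1.49 TPM in Cadenza.

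The 2 genes of the fatty acid list that rose were TraesCS4B03G0082800 (log2 change of 1.81) and TraesCS4B03G0082200 (1.27). Of the alcohol-forming fatty acyl-CoA reductases, which make the fatty alcohols found in waxes, 4 of 5 fell. TraesCS3A03G0029500 had 0.876, 0.318, 0.377 and 0.886 TPM in *tabri1-a.2bd*, against 5.56, 4.48, 4.34 and 4.67 TPM in Cadenza (log2 change of -2.28 ± 0.21, adjusted p = 0.00024). TraesCS3D03G0023400 fell by 2.09.

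The 4 genes of the flavonoid biosynthesis list that reached 0.5 TPM in libraries of both genotypes fell, with a median log2 change of -1.72. The summed level of all 5 genes of the list was 22.3, 20.8, 23.4 and 15.3 TPM in *tabri1-a.2bd*, against 81.1, 76.9, 67.9 and 55.2 TPM in Cadenza. TraesCS2A03G0052400 had 0.852, 1.23, 1.01 and 0.504 TPM in *tabri1-a.2bd*, against 7.51, 8.33, 7.26 and 4.42 TPM in Cadenza (log2 change of -2.39 ± 0.23, adjusted p = 0.00029). The fifth, TraesCS2D03G0045100, was admitted through Cadenza alone, with 0 TPM in all 4 *tabri1-a.2bd* libraries, against 1.35, 1.1, 1.61 and 1.43 TPM in Cadenza.

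The beta-fructofuranosidases, which split sucrose or fructans, divided evenly, with 5 higher and 5 lower of 10. The summed level was 261 to 334 TPM in *tabri1-a.2bd* and 520 to 696 TPM in Cadenza. TraesCS4A03G1224500 had 47, 36.8, 65.8 and 40.6 TPM in *tabri1-a.2bd*, against 157, 170, 171 and 124 TPM in Cadenza (log2 change of -1.72 ± 0.18, adjusted p = 0.00044), and TraesCS7A03G0018100 fell by 1.81. TraesCS6B03G0071700 and TraesCS6D03G0052000 rose by 1.27 and 1.03. Of the enzymes acting on aldehyde or oxo groups, 8 of 14 rose, led by TraesCS3D03G0793300 (1.35), and 5 fell. TraesCS3A03G0864700, admitted through the dwarf alone, had 0.729, 0.865, 1.09 and 1.08 TPM in *tabri1-a.2bd*, against 0.115, 0.113, 0.13 and 0.21 TPM in Cadenza. TraesCS6D03G0543500 of these had a log2 change of -1.09, and TraesCS1A03G0770800, admitted through Cadenza alone, was at 0 in all 4 *tabri1-a.2bd* libraries, against 0.343, 1.14, 0.614 and 0.505 TPM in Cadenza.

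Of the plastoglobule list, the lipid droplets of plastids, 10 of 14 fell and 1 rose, with a median of -0.42. TraesCS2A03G0298800 had a log2 change of -0.58. TraesCS7D03G0816400 (-0.68, adjusted p = 0.022) lost its call without replicate 1 or 4 of *tabri1-a.2bd* or replicate 1 or 3 of Cadenza (adjusted p between 0.053 and 0.064), and TraesCS3D03G0046800 (0.48, adjusted p = 0.019) without *tabri1-a.2bd* replicate 2 (adjusted p = 0.054). Of the chloroplast thylakoid membrane list, 6 of 17 fell and 0 rose, led by TraesCS5B03G0347200 at -0.83 and TraesCS2B03G0817600 at -0.47.

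Of the oligopeptide transport list, 9 of 18 fell and 3 rose. TraesCS4B03G0881900 and TraesCS6A03G0939700 had log2 changes of -1.21 and -1.09, and TraesCS3D03G0828400 and TraesCS3A03G0903800 of 1.03 and 0.87. All 3 phosphoadenylyl-sulfate reductase genes fell, among them TraesCS2A03G0487300 (-0.73) and TraesCS2B03G0603800 (-0.60). Of the aromatic amino acid transporters, 3 of 4 fell. TraesCS4A03G0169200 had a log2 change of -0.67, and TraesCS3D03G0336300, admitted through Cadenza alone, had 0.313, 0.0784, 0.419 and 0.448 TPM in *tabri1-a.2bd*, against 1.81, 0.702, 1.26 and 1.27 TPM in Cadenza.

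Of the diacylglycerol kinases, 3 of 7 fell, with TraesCS2D03G1190300 at -0.77 and TraesCS2A03G1233700 at -0.42, a call that was lost without *tabri1-a.2bd* replicate 2 or Cadenza replicate 3 or 4 (adjusted p between 0.053 and 0.062). Of the histone acetyltransferase list, 2 of 6 fell, TraesCS2B03G0926400 by 1.99 and TraesCS3B03G1106800 by 0.53 on the log2 scale. None of the 4 genes of the cohesin complex or the 12 of the inner mitochondrial membrane complex was called, and their medians were -0.06 and 0.00.

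**Figure D3:**
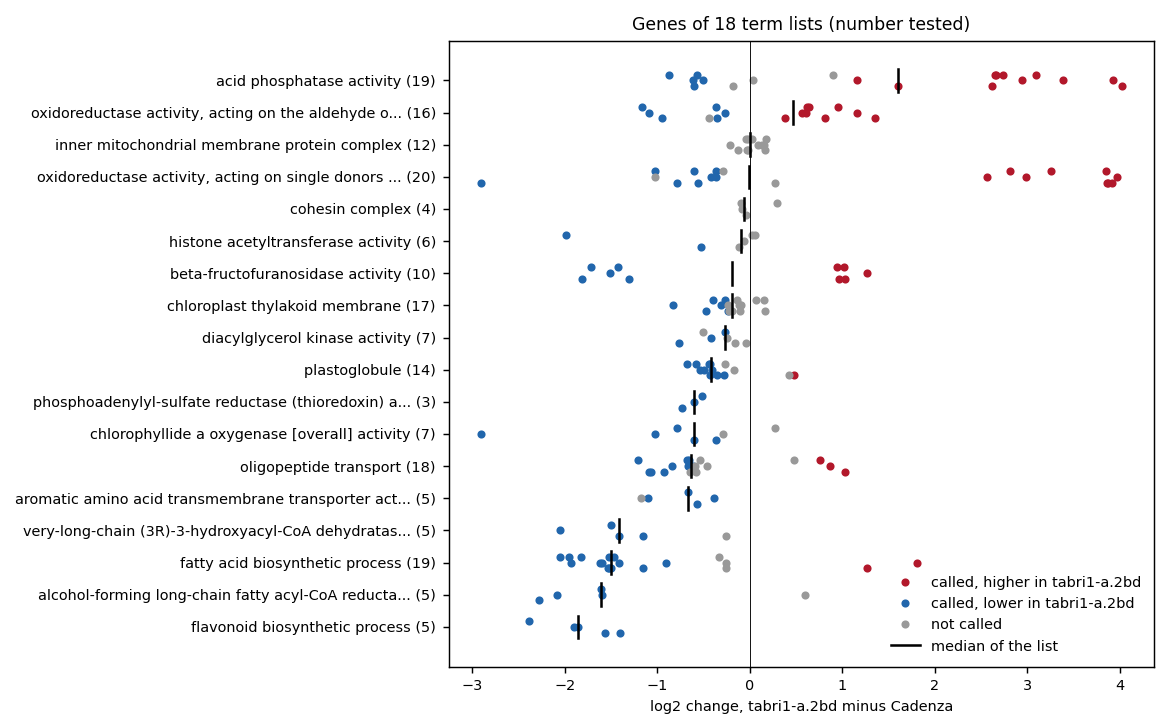
log2 change (*tabri1-a.2bd* minus Cadenza) of each tested gene of the 18 term lists, in red where higher, blue where lower and grey where not called, with a black line at the median of each list, genes admitted by the filter through 1 genotype included. Called genes of the acid phosphatase list reach 4.03 to the right, those of the flavonoid list -2.39 to the left, and the oxygenases acting on single donors fall into a set above 2.5 and a set below 0.5.

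Outside these lists, the largest rises were in neighbouring identifiers on chromosome 1B. TraesCS1B03G0501800 had 566, 333, 274 and 390 TPM in *tabri1-a.2bd*, against 1.08, 1.5, 1.24 and 1.27 TPM in Cadenza (log2 change of 7.74 ± 0.20, adjusted p = 3.2e-08). TraesCS1B03G0501600 had 600, 435, 392 and 566 TPM in *tabri1-a.2bd*, against 3.19, 3.86, 5.4 and 5.68 TPM in Cadenza (log2 change of 6.64 ± 0.19, adjusted p = 9.2e-08). Neither gene is annotated in the sources used here. In the other genotypes, TraesCS1B03G0501800 had 388, 2610 and 3260 TPM in *tabri1-a.1bd* and 15.2 to 43.9 TPM in *tabri1-a.3bd*. It varied widely in the double mutant (1.16, 1.83, 18.2 and 5.48 TPM) and in *TaBRI1-NS* (0.875, 0.656, 0.66 and 6.83 TPM), where single libraries were high. TraesCS1B03G0501600 had 326, 1510 and 1630 TPM in *tabri1-a.1bd* and 32.5 to 85.3 TPM in *tabri1-a.3bd*, with 1.54 to 28.3 TPM in the double mutant and 0 to 8.74 TPM in *TaBRI1-NS*.

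The largest falls were on chromosome 6B. TraesCS6B03G0694200 had 0.127, 0.0833, 0 and 0 TPM in *tabri1-a.2bd*, against 147, 131, 147 and 137 TPM in Cadenza (fitted log2 change of -8.00). TraesCS6B03G0637300 was at 0 in the 4 *tabri1-a.2bd* libraries, against 64.2, 81.6, 82.5 and 74.8 TPM in Cadenza. It was at least 531-fold lower in *tabri1-a.2bd*, set against a floor of 3 reads per library. Both passed the filter through Cadenza alone.

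These genes lay in stretches of 6B that were nearly silent in the dwarf. A gene was counted as near 0 in *tabri1-a.2bd* where every library of it was at or under 5% of the Cadenza mean, among 60485 genes that averaged 1 TPM or more in Cadenza. This held for 168 genes, of which 103 were on 6B, and 101 of those fell into 2 blocks in identifier order. The first block, TraesCS6B03G0627800LC to TraesCS6B03G0647800LC, held 55 compared genes, of which 54 were near 0. The second, TraesCS6B03G0680800 to TraesCS6B03G0706700, held 54, of which 47 were near 0. A rule of this kind chooses genes by these very values, so the counts are a description with no test.

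The 54 genes of the first block summed to 0.129, 0, 0.0334 and 0.835 TPM in *tabri1-a.2bd*, against 453, 466, 479 and 466 TPM in Cadenza. In reads this was 0 to 21 per *tabri1-a.2bd* library, against 11063 to 14266 per Cadenza library. The 47 genes of the second block summed to 1.07, 0.922, 1.18 and 0.985 TPM in *tabri1-a.2bd*, against 604, 581, 603 and 605 TPM in Cadenza. The other 7 genes of the second block were not near 0 and summed to 48.7 to 52.4 TPM in *tabri1-a.2bd*, against 116 to 128 TPM in Cadenza.

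Almost all of these genes were near 0 in *tabri1-a.1bd* as well. Over both blocks, the 101 genes summed to 1.09 to 2.32 TPM in *tabri1-a.1bd* libraries. They reached 1020 to 1090 TPM in the *tabri1-a.3bd* libraries, 949 to 1030 TPM in the double mutant and 484 to 610 TPM in *TaBRI1-NS*. The *TaBRI1-NS* libraries thus lay between the near-silent genotypes and Cadenza (1050 to 1080 TPM). Of the 101 genes, 100 were near 0 in every *tabri1-a.1bd* library, 1 in every *tabri1-a.3bd* library and 0 in every library of *tabri1-bd* or *TaBRI1-NS*. Whether the genes are missing from the genome or not transcribed was not tested, as the TPM values do not show it.

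**Figure D4:**
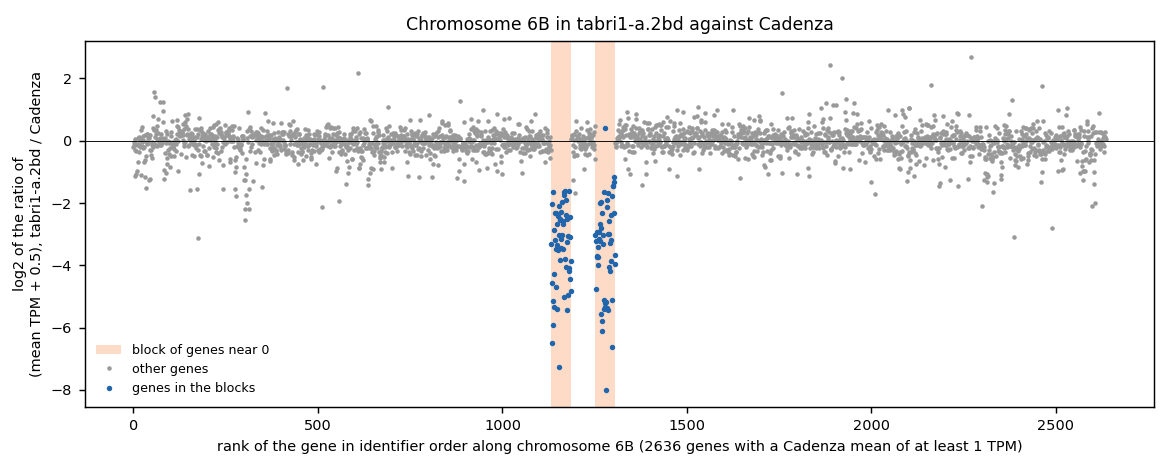
log2 of the ratio of mean TPM + 0.5 (dwarf over Cadenza) for the 2636 genes of chromosome 6B that averaged 1 TPM or more in Cadenza, by rank in identifier order. The 2 shaded blocks, of 55 and 54 genes, drop to as low as -8.00, and the genes between and around them scatter near 0.

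Chromosome 6B had 269 lower DEGs among 3249 genes tested (8.28%), and 162 of 3140 (5.16%) without the blocks, which is within the range of 4.05% (4B) to 7.03% (2D) on the other assembled chromosomes. Higher DEGs made up 3.15% (7B) to 4.72% (4B) of the genes tested on each of the 21 chromosomes. The 67 genes near 0 outside the blocks were spread, with 1 to 6 on each chromosome. Of these, 33 were near 0 in the libraries of *tabri1-a.1bd* too, 26 in those of *tabri1-a.3bd*, 17 in those of the double mutant and 15 in those of *TaBRI1-NS*, while 21 were near 0 in no other genotype. In the other direction, 81 of 59931 genes with a *tabri1-a.2bd* mean of at least 1 TPM were near 0 in every Cadenza library. None of them was on 6B and they formed no block. They exceeded 5% of the *tabri1-a.2bd* mean in every library of *tabri1-a.1bd* for 39 genes, of *tabri1-a.3bd* for 26, of the double mutant for 15 and of *TaBRI1-NS* for 8.

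The DEGs were then looked up in the other dwarfs, each against *TaBRI1-NS*, comparisons that share no library with this one. Genes that the filter admitted through 1 genotype alone are included (255 of 2781 higher and 465 of 4339 lower DEGs before this match). Shares without them were not computed. In *tabri1-a.1bd*, 711 of 2645 higher DEGs (26.9%) were called higher too, where 16.5% of all 69929 genes tested in both were, and 239 were called lower. These 711 were 6.14% of the higher DEGs of *tabri1-a.1bd*. The median log2 change in *tabri1-a.1bd* was 0.11 over the 2645 genes, against 0.09 for all genes, with 1429 genes above 0 and 1216 below. Of 4197 lower DEGs, 1742 (41.5%) were called lower too, where 14.3% of all genes were, and 564 were called higher. These were 17.4% of the lower DEGs of *tabri1-a.1bd*. The median log2 change over the 4197 genes was -0.44. Replicate 1 of *tabri1-a.1bd*, the library that stood apart in *TaBR6ox1*, was then left out. The shares were 44.3% for higher DEGs (background 19.7%) and 47.8% for lower DEGs (background 16.3%), with 1150 and 1990 genes. The median log2 changes were 0.56 and -0.57, against 0.16 for all genes.

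Larger changes were called in the same direction in *tabri1-a.1bd* at higher shares. Of the higher DEGs of more than 4-fold, 108 of 240 (45.0%) were called higher in *tabri1-a.1bd*, and 165 of 229 (72.1%) without its replicate 1. Of the lower DEGs of more than 4-fold, 186 of 272 (68.4%) were called lower in *tabri1-a.1bd*. The blocks of 6B account for part of these, since 87 of the 88 block genes among them were called lower, and without the blocks the share was 99 of 184 (53.8%).

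The milder *tabri1-a.3bd* shared fewer calls, and it also had fewer in all. Of 2654 higher DEGs, 111 (4.18%) were called higher in it, where 0.943% of 70540 genes were, and of 4223 lower DEGs, 165 (3.91%) were called lower, where 0.559% were. These were 16.7% of its higher and 41.9% of its lower DEGs. The median log2 change in *tabri1-a.3bd* was 0.21 for the higher DEGs and -0.10 for the lower ones, against 0.09 for all genes. Of the 70 lower DEGs that were called higher in *tabri1-a.3bd*, 41 were block genes. The nearly silent genes of the blocks summed to 484 to 610 TPM in *TaBRI1-NS*, below *tabri1-a.3bd* (1020 to 1090 TPM) and Cadenza (1050 to 1080 TPM). Among the lower DEGs of more than 4-fold, 36 of 273 (13.2%) were called lower in *tabri1-a.3bd* and 43 were called higher. Without the blocks, 36 of 183 were called lower and 6 higher.

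**Figure D5:**
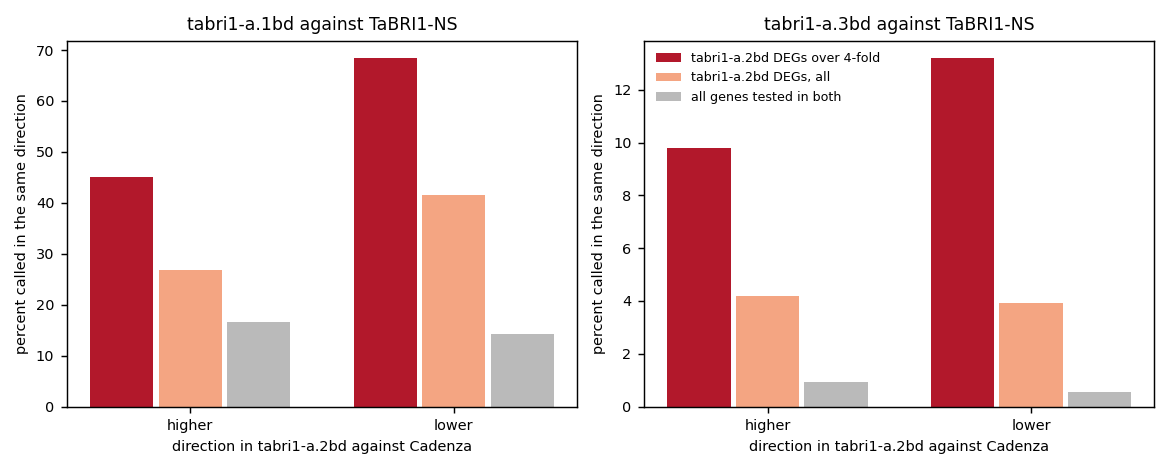
Percent of genes called in the same direction in *tabri1-a.1bd* (left) and *tabri1-a.3bd* (right) against *TaBRI1-NS*, for *tabri1-a.2bd* DEGs of more than 4-fold (red), all *tabri1-a.2bd* DEGs (orange) and all genes tested in both (grey), with separate axes from 0. In both panels and both directions the bars step down in that order, for example 45.0%, 26.9% and 16.5% for higher genes in *tabri1-a.1bd*. Calls in the opposite direction are not drawn, and for lower genes of more than 4-fold in *tabri1-a.3bd* they outnumbered those shown (43 against 36). Of these 43, 37 were genes of the 6B blocks, and without the blocks 6 were called higher and 36 lower. Genes that the filter admitted through 1 genotype alone are included.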

How the data were processed

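The 4 *tabri1-a.2bd* and 4 Cadenza libraries were taken with their genotype and replicate number from the labels. The authors deposited TPM per library, made from paired reads with Trimmomatic 0.39, STAR 2.7.8a on IWGSC RefSeq v2.1 and HTSeq 0.11.3. HTSeq options, strand use and gene lengths are not given in the sources used here, so overlapping or near-identical genes are uncertain.

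As TPM are not counts, limma 3.58.1 (lmFit, eBayes with trend and robust, statmod 1.5.0, R 4.3.3) on log2(TPM + 0.5) replaced the study's DESeq2. Genes with TPM of at least 0.5 in 3 or more of the 8 libraries were tested, and a Benjamini-Hochberg adjusted p of at most 0.05 was called. Fold changes of low genes are understated on this scale. Other pairs of genotypes were fitted likewise. Python 3.11.15, numpy 2.4.6, pandas 2.3.3, numba 0.67.0 and matplotlib 3.10.9 did the rest.

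Whole reads were recovered from the steps of the TPM for 94749 of 94749 genes above 0 in at least 8 libraries (100%, within 0.02 of a whole number), but for 0 of 1000 of them when the relative depth of the libraries was left out, and a voom fit of them called 9202 genes. They cover counting error only. On simulated data of 71916 genes, limma called 88 of 100 genes changed by 2-fold, 100 of 100 changed by 4-fold and 12 unchanged genes. The simulation gave all genes the same dispersion, a median over the Cadenza libraries, and changed only genes above a floor of expected reads. These shares therefore do not hold for low or more variable genes. Blocks held at least 10 genes near 0, separated by 5 or fewer other genes.

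The genes, lists and tests were chosen with earlier results of these data known. Named are BR genes that were DEGs or of the families *BRI1*, *DWARF4*, *CPD*, *BR6ox1*, *BZR*, *BKI1* and *CDG1*, the 2 largest rises and 2 largest falls outside the lists whose libraries do not overlap, and up to 2 rises and 2 falls per term list. All 76 BR identifiers matched the table, and 3 of the term lists did not. No sequences are shown, as none used here is paired with these identifiers. Replicates were pools of seedlings, and p-values measure the spread between them.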

Additional observations from a re-analysis of the deposited data

Results flagged for a closer look

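In 172 groups of 4 libraries (the named genes, the recovered reads and the principal component scores in each genotype), 5 had a library that stood apart from the other 3 by Dixon's ratio, where chance flags about 1 in 20 groups. In *tabri1-a.2bd*, replicate 4 had 3.18 TPM of TraesCS6D03G0543500, against 5.36 to 5.69 TPM in the others, and replicate 1 had 14.0 TPM of TraesCS5B03G0958400, against 6.64 to 7.29 TPM in the others. In Cadenza, replicate 4 had 28.4 TPM of *TaBAK1-B2*, against 30.8 to 31.1 TPM in the others, and replicate 1 had 43.5 TPM of TraesCS4A03G0169200, against 36.9 to 37.8 TPM. Cadenza replicate 4 also held 38452115 recovered reads, against 29734284 to 30566060 in the others. All 4 genes kept their calls without these libraries.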

How the results depend on the processing

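The count of 7120 DEGs was 4835 with all 23 libraries in 1 fit, 5629 with no filter, 5138 with the replicate block and 9202 with voom on recovered reads. Pseudocounts of 0.1 and 1, size factors, array weights, high-confidence models alone and a stricter filter (2 TPM) gave 6591 to 7761. Without each library in turn it was 4412 to 6232, with 1800 to 2362 higher and 2612 to 3870 lower, 12 to 18 BR genes and 104 to 120 term list genes. Higher DEGs numbered 1486 and BR genes 11 with all 23 libraries in 1 fit, and the cause was not tested. At more than 2-fold there were 2737 DEGs (1020 higher, 1717 lower), 8 BR genes and 64 term list genes, as fewer genes can pass. With a mean of at least 2 TPM, 105 genes were near 0 in place of 168, as fewer were compared. Without *tabri1-a.1bd* replicate 1, 1150 higher DEGs in place of 711 were shared with it, and 1990 lower DEGs in place of 1742. With all *tabri1-a.1bd* libraries, 1650 lower DEGs were shared without the genes of the blocks. The alternatives of these last sentences were chosen after seeing the data.

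Correlations of deviations between same-numbered libraries were -0.005 to 0.084, so the replicate number did not pair the samples. With the replicate block the calls on *TaBR6ox1-A3*, *TaBRI1-D*, *TaBAK1-A2*, *TaBZR-D1*, TraesCS1A03G0770800 and TraesCS2A03G1233700 were lost. Of the 64 named genes called, 48 were called in every alternative that tested them, and no named gene reversed. With all 23 libraries in 1 fit, the adjusted p of *TaBR6ox1-D2* was 0.057.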

Other observations

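Of 3 term list genes, 2 were lower and 1 was higher in *tabri1-a.2bd* than in Cadenza, and all 3 were above *TaBRI1-NS* in every *tabri1-a.1bd* library. TraesCS4A03G1017200, of the chlorophyllide *a* oxygenase list, had 3.45 to 4.74 TPM in *tabri1-a.2bd* libraries, against 32.2 to 37.8 TPM in Cadenza. It had 134, 67 and 47.6 TPM in *tabri1-a.1bd*, 33.1 to 38.4 TPM in *tabri1-a.3bd* and 29.4 to 39.5 TPM in *TaBRI1-NS*. TraesCS7D03G0307400 of the same list had 5.48 to 5.87 TPM in *tabri1-a.2bd*, against 11.4 to 12.9 TPM in Cadenza, while *tabri1-a.1bd* had 102, 46.8 and 29.3 TPM. TraesCS3D03G0793300, of the list acting on aldehyde or oxo groups, had 1.77 to 2.13 TPM in *tabri1-a.2bd*, against 0.421 to 0.545 TPM in Cadenza, while *tabri1-a.1bd* had 178, 72.7 and 38.8 TPM. Replicate 1 of *tabri1-a.1bd*, which stood apart in *TaBR6ox1*, had the highest value of its genotype for all 3 genes, and the 2 other libraries were also above those of the other genotypes. These genes were picked after their values were seen. Their lists came from DEGs that *tabri1-a.1bd* and *tabri1-a.2bd* shared against *TaBRI1-NS*. A difference of *tabri1-a.1bd* from *TaBRI1-NS* was therefore a condition of entry and is not a separate result.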
